A study of Mus musculus with 4 samples.

Results

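The regions described here are 1661 bins of 5 kb in which the H3K9me3 library of secondary mouse embryonic fibroblasts (secondary MEF) stood above that of mouse embryonic fibroblasts (MEF) and where MEF H3K4me3 was low. The bins were chosen by the read counts of those libraries. A bin was taken when secondary MEF H3K9me3 reached 2-fold over its library mean and at least 2 times the MEF H3K9me3 fold, with MEF H3K4me3 under 2-fold. Fold is the number of reads in a bin divided by the library's mean over all bins with a read in any library. The rule took in 1661 of 443447 bins on the autosomes without chromosome 12, or 0.375%, and of 412428 such bins with H3K4me3 under 2-fold it took 0.403%. Positions are on mouse build mm8 and regions are named by position, since neither sequence nor gene annotation of that build was used here.

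Chromatin immunoprecipitation with sequencing was carried out on 4 groups with 1 library each: H3K9me3 in secondary MEF, and H3K9me3, H3K4me3 and H3K27me3 in MEF. Secondary MEF were fibroblasts taken at 13.5 days post coitum from chimeric mouse embryos. Those embryos had been made by injecting BDF2 blastocysts with induced pluripotent stem (iPS) cells, which carried doxycycline-inducible Oct4, Klf4 and Sox2 and an Oct4-selectable cassette. A chimera also holds host cells, and 2 µg/ml puromycin for 48 hours was used to keep the fibroblasts of iPS cell origin. The labels mention no doxycycline given to these fibroblasts, and they give neither a number of embryos nor the share of host cells left. The labels describe the MEF only as fibroblasts grown in 10% fetal bovine serum, with no strain, age or genotype, whereas secondary MEF were grown in 10% cosmic calf serum. One antibody lot served for the pair of H3K9me3 libraries, with chromatin of 500 bp mean length, 18 cycles of PCR and gel selection from 150 to 350 bp. The secondary MEF library came from another flow cell than the 3 MEF libraries. Cell source, serum, puromycin selection and flow cell thus cannot be told apart. With 1 library per group no difference has a replicate check, no test was made, and every comparison is between libraries. Intervals are 95% Clopper-Pearson intervals and cover counting error only.

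H3K9me3 is the histone mark of heterochromatin. It is laid down by SUV39H enzymes and SETDB1 and bound by HP1 proteins, and in fibroblasts it covers satellite repeats, transposon remnants and broad gene-poor domains. H3K4me3 marks promoters that are active or poised. H3K27me3 is the product of Polycomb repressive complex 2 and marks genes held silent by another route than H3K9me3. Fibroblasts derived from iPS cells have passed through a pluripotent state and through development, and H3K9me3 domains are known to be remodelled in both. Whether this has a part in the bins described here was not tested.

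One read was kept per position and strand. The libraries then held 7808262 reads for secondary MEF H3K9me3, 8729865 for MEF H3K9me3, 11195124 for MEF H3K4me3 and 9175201 for MEF H3K27me3. The mean bin held 15.8 reads in secondary MEF H3K9me3, 17.6 in MEF H3K9me3, 22.6 in MEF H3K4me3 and 18.5 in MEF H3K27me3. A level of 2-fold therefore rested on about 32 reads in secondary MEF. Reads fell evenly on both strands in the chosen bins, with 50.1% of secondary MEF and 50.2% of MEF H3K9me3 reads on the plus strand.

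Both comparison sets below had low H3K4me3 as well. Retained bins were at 2-fold in secondary MEF H3K9me3 but under 2 times MEF, and they numbered 26867, or 6.51% of the bins with low H3K4me3. Mirror bins followed the same rule turned round, with MEF H3K9me3 at 2-fold and at least 2 times secondary MEF, and they numbered 3731, or 0.905%. All 3 sets were chosen by H3K9me3 reads, so their H3K9me3 levels in the bin describe the choice.

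On the reads that chose the bins, secondary MEF stood moderately above MEF in most bins and far above it in few. The limits of the rule set how low these values could be. Secondary MEF H3K9me3 had a median of 39 reads over the 1661 bins, with a lowest of 32 and a highest of 194, against a median of 19 reads in MEF H3K9me3, with a lowest of 6 and a highest of 71. The medians were equal to 2.47-fold in secondary MEF against 1.08-fold in MEF. The typical bin thus stood close to the library mean in MEF on the reads that chose it. Bins chosen on 1 strand had a mean of 1.48-fold in MEF on the other strand, as given below. The ratio of secondary MEF to MEF fold had a median of 2.24, and its quartiles were 2.1 and 2.49. A ratio of 3 was reached by 124 bins and a ratio of 4 by 19, while the highest was 7.30. Secondary MEF H3K9me3 reached 3-fold in 375 bins, 4-fold in 73 and 5-fold in 21. In MEF 32 of the bins were already at 2-fold, and 5 were under 0.5-fold.

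**Figure D1:**
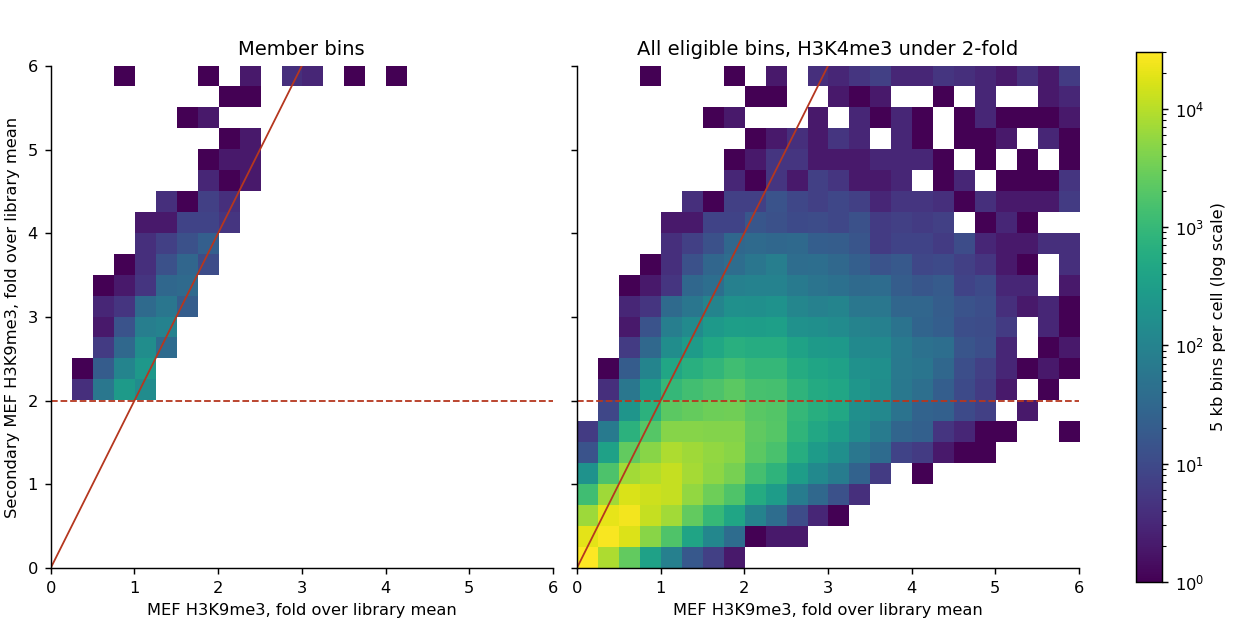
Secondary MEF H3K9me3 (vertical) against MEF H3K9me3 (horizontal), each as fold over the library mean, for the 1661 chosen bins (left) and all 412428 eligible bins with MEF H3K4me3 under 2-fold (right). Color gives the number of bins on a log scale, values of 6 or more are drawn in the outermost cells, and the dashed line at 2-fold and the solid line at 2 times MEF are the limits of the rule; most chosen bins crowd against both lines, near 2-fold for secondary MEF with MEF near 1-fold.

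Many bins lay just inside the limits. The fewest secondary MEF reads the rule allows are 32, or 2.03-fold, and 118 of the bins had exactly that number. Another 143 bins met the other limits with 31 reads, or 1.96-fold, and were left out. A ratio from 2 to under 2.1 was found in 401 chosen bins, while 526 bins with a ratio from 1.9 to under 2 stayed outside. The median chosen bin in that narrow range had 39 reads in secondary MEF and 21 in MEF, and the median bin just outside had 38 in secondary MEF and 22 in MEF. Membership at the edge thus turned on 1 or 2 reads. At the H3K4me3 limit, 87 chosen bins lay from 1.8 to under 2-fold and 39 bins from 2 to under 2.2-fold met the H3K9me3 limits.

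How far the ratio holds on reads that did not choose the bins was read from the opposite strand. The rule was applied to the reads of one strand and the ratio was taken from the other strand of the same libraries. The plus strand alone chose 4435 of the 443447 bins and the minus strand alone 4297, which together is 0.985% of the bins looked at on either strand. Over these 8732 choices the ratio was 2.51 on the strand that chose and 1.29 (1.28 to 1.30) on the other strand. On the other strand the mean level was 1.91-fold in secondary MEF against 1.48-fold in MEF. The ratio on unused reads was therefore above 1, but much smaller than on the reads that chose. Retained bins chosen in the same way had a ratio of 0.969 (0.966 to 0.971) on the other strand, and mirror bins 0.728 (0.724 to 0.732). Of the 1661 bins, 484 (29.1%) met the rule on each strand alone, and 75 met it on neither strand alone.

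The ratio on the unused strand was higher where chosen bins lay near each other. It was 1.16 (1.14 to 1.17) for the 4279 choices with no other chosen bin within 50 kb and 1.28 (1.26 to 1.30) for the 2062 with 1 other. It was 1.46 (1.44 to 1.49) with 2 to 4 others and 1.73 (1.69 to 1.78) for the 654 choices with 5 or more. The order followed the number of neighbours throughout, and these intervals did not overlap. The ratio also differed by height, at 1.23 (1.22 to 1.24) for choices of 2 to 3-fold, 1.41 (1.39 to 1.44) for 3 to 4-fold and 1.61 (1.57 to 1.66) for 4-fold or more in secondary MEF on the choosing strand. By H3K27me3 on that strand, it was 1.35 (1.34 to 1.37) where MEF H3K27me3 was under 1-fold, 1.27 (1.26 to 1.29) from 1 to 2-fold and 1.14 (1.11 to 1.17) at 2-fold or more. Both strands come from the same libraries, so this is a check of counting error and not of replication.

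**Figure D2:**
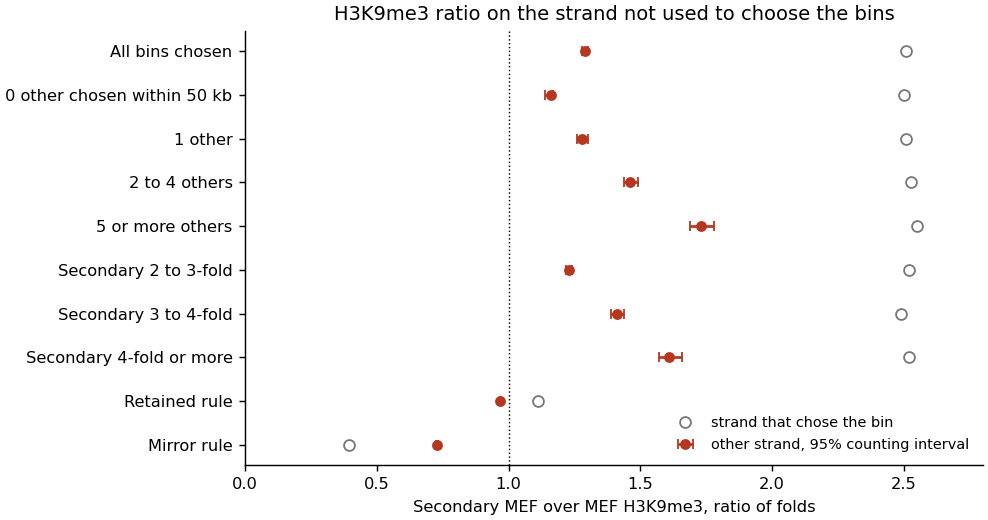
Ratio of secondary MEF to MEF H3K9me3 fold (horizontal) for bins chosen on one strand alone, read on the strand that chose them (open circles) and on the other strand (filled circles, bars are 95% counting intervals), for all choices, by the number of other chosen bins within 50 kb, by secondary MEF fold, and for the retained and mirror rules. The choosing strand gives about 2.5 in every class of the chosen bins, whereas the other strand goes from 1.16 with no other chosen bin nearby to 1.73 with 5 or more.

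The chosen bins lay in clusters more than the background share of such bins. A neighbouring chosen bin was present for 293 of them (17.6%), against 0.695% of all bins with low H3K4me3. They formed 1493 runs of adjacent bins, of which 1368 were a single bin and 102 a pair. Only 23 runs held 3 bins or more, with 89 bins in all. Taken by distance, the share of chosen bins with a chosen bin at exactly 5 kb to a given side was 10.1%, which is 25.1 times the background share. That share was 7.10% at 50 kb (17.6 times), 3.79% at 250 kb (9.42 times), 1.57% at 500 kb (3.89 times) and 1.08% at 1000 kb (2.69 times). Clustering thus reached far past adjacent bins and fell off between 250 and 500 kb. At 5 kb the share was 29.8% for retained bins (4.57 times their background share) and 7.18% for mirror bins (7.94 times). At 1000 kb it was 13.9% for retained bins (2.13 times) and 1.42% for mirror bins (1.57 times). Retained bins thus had the larger shares and the smaller multiples. Their background share of 6.51% limits how large a multiple can be. Neighbours share a library and any broad domain, and a broad domain gives adjacent bins like levels.

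The median bin was 60.0 kb from the nearest other chosen bin, and 812 bins (48.9%) had another within 50 kb. At the other end, 228 were more than 1 Mb from any other. Of 2295 windows of 1 Mb, 660 held a chosen bin and 373 of these held exactly 1. The 28 windows with 10 or more held 457 of the bins, or 27.5%. The set thus had a scattered part and a dense part.

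The 28 dense windows were spread unevenly over the chromosomes. Chromosome 5 had 7 of them with 98 chosen bins and chromosome 15 had 5 with 97, and chromosomes 2 and 11 had 3 each. Chromosome 5 held 239 of all 1661 bins, or 14.4%, against 6.44% of the bins with low H3K4me3. Per bin with low H3K4me3, the share chosen was 0.900% for chromosome 5, 0.805% for chromosome 15, 0.709% for chromosome 11 and 0.680% for chromosome 9. The 3 lowest shares were 0.144% on chromosome 3, 0.184% on chromosome 10 and 0.190% on chromosome 1. Mirror bins had another order, with the highest share on chromosome 4 at 1.91%. Among the bins with low H3K4me3 that were not chosen, the ratio of secondary MEF to MEF H3K9me3 was 1.02 on chromosome 5, 0.988 on chromosome 15, 0.949 on chromosome 3 and 0.854 on chromosome 4, so the chromosomes also differed in level outside the chosen bins, and the part of this in the chosen counts was not tested. The first 6 Mb of the chromosomes held 1.20% of the chosen bins against 2.25% of bins with low H3K4me3, and the last 2 Mb held 1.75% against 1.55%. Retained bins were alike in this, with 1.43% in the first 6 Mb and 1.83% in the last 2 Mb, and so were mirror bins, with 1.31% in the first 6 Mb and 1.98% in the last 2 Mb.

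In the dense windows the bins that were not chosen were also higher in secondary MEF. Over all windows with 10 or more chosen bins, the ratio in the other eligible bins was 1.19 (1.18 to 1.20), and it was above 1 in 27 of the 28. The exception was chromosome 5 from 112000001 to 113000000, at 0.947. With 5 to 9 chosen bins the ratio was 1.11 (1.11 to 1.12), with 2 to 4 it was 1.02, with 1 it was 0.973, and in the 1635 windows with none it was 0.961 (0.960 to 0.962). The ratio in bins outside the set thus went up with the number of chosen bins in the window, although leaving out every bin past the rule lowers it. Dense windows had high H3K9me3 in general, with secondary MEF at a mean of 1.88-fold where MEF was at 1.58-fold, against 0.87-fold for secondary MEF where MEF was at 0.91-fold in windows with none. Their mean MEF H3K27me3 was 1.38-fold against 0.90-fold in windows with none, and their mean MEF H3K4me3 1.13-fold against 0.87-fold. Windows with a single chosen bin had like H3K27me3, at 1.36-fold, and higher H3K4me3, at 1.54-fold.

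The window with the most chosen bins was on chromosome 9 from 46000001 to 47000000. It held 32 of them, and in its 168 other bins there were 4635 reads in secondary MEF against 4167 in MEF, a ratio of 1.24 (1.19 to 1.30). Only 2 of its bins reached 2-fold in MEF H3K4me3. Chromosome 13 from 57000001 to 58000000 held 30, with a ratio of 1.37 (1.32 to 1.43) in its other bins. That window had mean levels of 0.39-fold H3K4me3 and 0.75-fold H3K27me3 in MEF, with 1 bin at 2-fold in H3K4me3 and 2 in H3K27me3. Chromosome 17 from 48000001 to 49000000 held 25, with a ratio of 1.34 (1.29 to 1.40) in its other bins.

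The dense windows on chromosome 15 differed among themselves. The window from 74000001 to 75000000 held 26 chosen bins and had a ratio of 1.07 (1.02 to 1.11) in its other bins, and the window from 83000001 to 84000000 also held 26, at 1.15 (1.11 to 1.20). In both, most chosen bins lay in one stretch of the window. Both had many bins with other marks, with 60 bins at 2-fold in MEF H3K27me3 and 16 in MEF H3K4me3 in the window from 74000001, and 69 in H3K27me3 and 36 in H3K4me3 in the window from 83000001. At the start of the first of these windows the secondary MEF level stayed near 3-fold over several 50 kb steps while MEF was under 2-fold. The window from 87000001 to 88000000, with 18 chosen bins, had a ratio of 1.37 (1.32 to 1.42) in its other bins, and only 4 bins at 2-fold in H3K27me3 and 2 in H3K4me3.

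**Figure D3:**
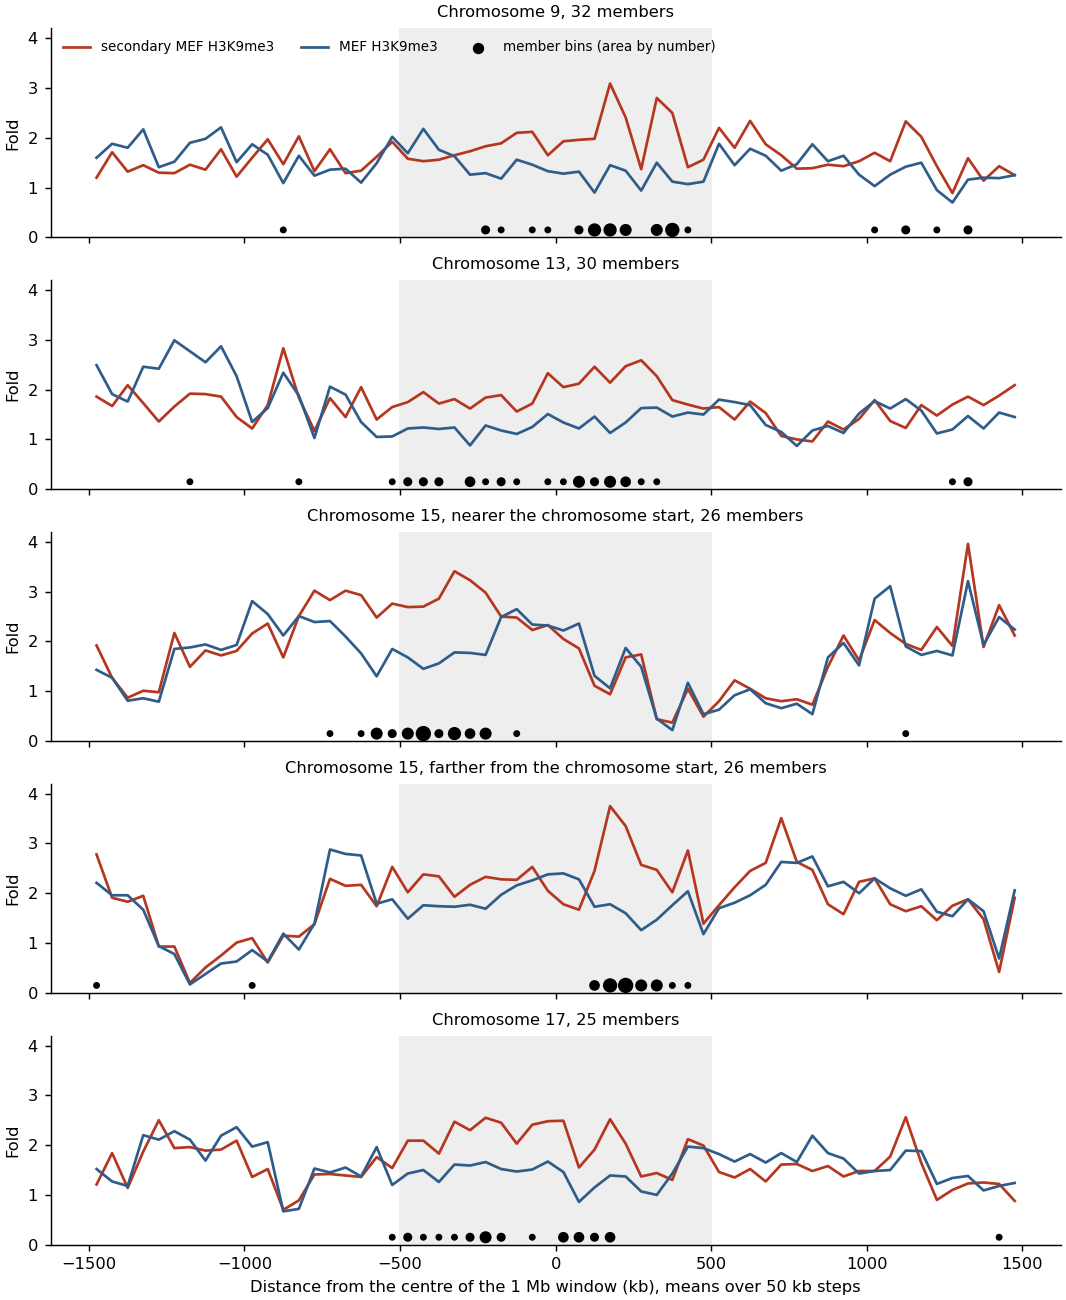
Mean fold over the library mean in steps of 50 kb (vertical) for secondary MEF H3K9me3 (red) and MEF H3K9me3 (blue), by distance from the centre of each of the 5 windows with the most chosen bins (horizontal, kb; the window itself is shaded), with black dots where chosen bins lie and dot area by their number. On chromosomes 13 and 17 the secondary MEF line is above the MEF line over most of the shaded window, whereas on chromosome 15 the gap is widest over the stretch that holds most chosen bins, and in the second window there MEF is the higher line just before that stretch.

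The longest run was 8 adjacent bins, or 40 kb, on chromosome 1 from 173365001 to 173405000. Its bins had 54, 53, 35, 39, 41, 46, 70 and 57 reads in secondary MEF H3K9me3, in order along the chromosome. In MEF H3K9me3 the same bins had 23, 13, 10, 20, 14, 15, 24 and 25 reads. The rule itself required each of these bins to be higher in secondary MEF. The sums were 395 reads in secondary MEF and 144 in MEF, which is 3.13-fold against 1.02-fold. MEF H3K4me3 stayed at or under 0.75-fold in the run and the pair of bins on each side, and mean MEF H3K27me3 was 0.92-fold. The 4 bins beside the run had a mean of 1.33-fold in secondary MEF against 0.75-fold in MEF, a ratio of 1.77 (1.24 to 2.55) in bins that the rule did not take.

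The next run was 6 bins on chromosome 15 from 83675001 to 83705000. Its bins had 74, 68, 43, 61, 74 and 42 reads in secondary MEF H3K9me3, against 40, 33, 24, 22, 37 and 20 in MEF H3K9me3. Here MEF was itself above its mean, at 1.66-fold against 3.82-fold in secondary MEF, and the bins beside the run were high too, at 3.66-fold in secondary MEF against 1.96-fold in MEF. A run of 5 bins on chromosome 11 from 114115001 to 114140000 had 46, 52, 68, 60 and 43 reads in secondary MEF against 23, 22, 35, 30 and 20 in MEF. A run of 5 bins on chromosome 15 from 74040001 to 74065000 had 46, 64, 61, 55 and 41 reads in secondary MEF against 24, 34, 34, 30 and 22 in MEF. A run of 5 bins on chromosome 9 from 46845001 to 46870000 had 50, 50, 39, 42 and 67 reads in secondary MEF against 16, 20, 18, 19 and 28 in MEF. These counts chose the runs, and the bins beside the runs did not. The bins beside the runs of 5 had ratios of 1.74 (1.34 to 2.25) for chromosome 11, 1.5 (1.19 to 1.9) for chromosome 15 and 1.52 (1.17 to 1.99) for chromosome 9. No bin of these runs or of the pair on each side passed 1.06-fold in MEF H3K4me3.

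The flanks of the chosen bins were measured on bins that were not chosen. Over 5 kb to each side these flanking bins held 85371 reads in secondary MEF H3K9me3 and 73080 in MEF H3K9me3, a ratio of 1.31 (1.29 to 1.32). Out to 10 kb the ratio was 1.27 (1.26 to 1.28), to 25 kb 1.22 (1.22 to 1.23), to 50 kb 1.18 (1.17 to 1.18) and to 100 kb 1.12 (1.12 to 1.13). The excess thus became smaller with distance and was still above the 0.985 (0.984 to 0.986) of all eligible bins at 100 kb. With bins of the own set left out likewise, the ratio around retained bins lay between 0.948 and 0.952 at every reach. For retained bins this leaves out neighbours picked for high secondary MEF H3K9me3. Around mirror bins the ratio was 0.775 (0.770 to 0.779) at 5 kb and 0.893 (0.891 to 0.895) at 100 kb. Among 1359 chosen bins whose neighbours were both eligible and not chosen, both neighbours were higher in secondary MEF for 849 (62.5%). With neighbours outside the own set likewise, the share was 23.4% of retained bins and 5.78% of mirror bins, and it was 27.4% of bins with low H3K4me3 that had no chosen neighbour.

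Secondary MEF stood above MEF on both sides of the chosen bins. In flanking bins that were not chosen, the mean secondary MEF level was 1.88-fold in the bin before, 1.89-fold in the bin after and 1.66-fold at 100 kb before. The mean MEF H3K9me3 level in the same bins was 1.44-fold at each of these places. In the chosen bins themselves the rule had set these means at 2.70-fold in secondary MEF against 1.16-fold in MEF. The chosen bins thus sat in stretches where MEF H3K9me3 was above its mean, and the low MEF value was confined to the bin the rule chose by it. Beside retained bins, bins outside that set had a mean of 1.73-fold for secondary MEF and 1.82-fold for MEF in the bin before. With retained bins counted there too, these means were 1.97-fold for secondary MEF and 1.98-fold for MEF. Around the chosen bins mean MEF H3K27me3 was between 1.06-fold and 1.29-fold at every distance up to 100 kb, with chosen neighbours included.

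**Figure D4:**
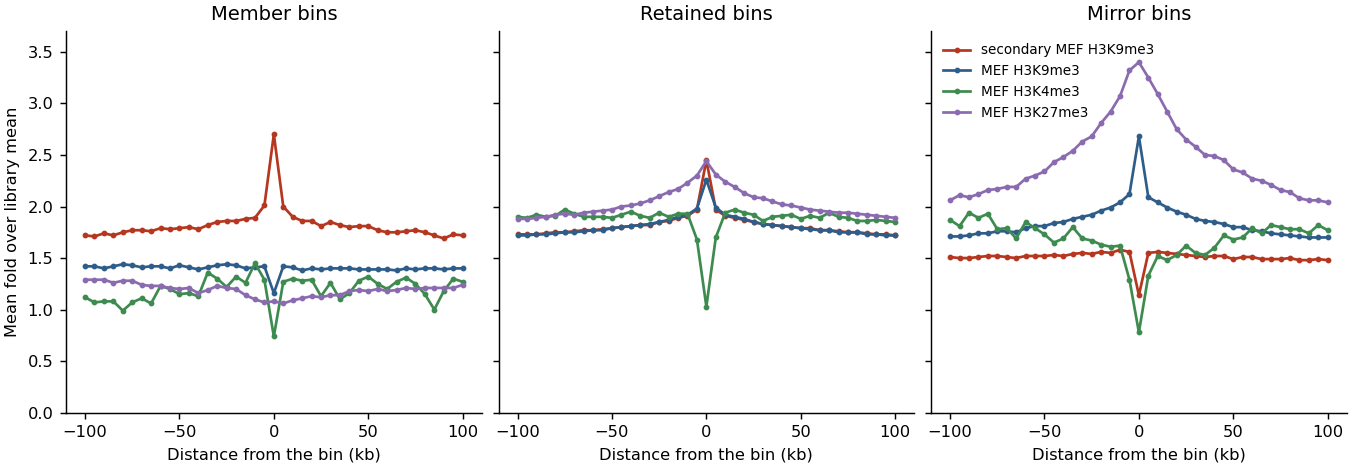
Mean fold over the library mean (vertical) of the 4 libraries by distance from the bin (horizontal, kb), for the chosen bins (members), retained bins and mirror bins; flanks here include bins that are themselves in the set. Around the chosen bins secondary MEF H3K9me3 stays above MEF H3K9me3 out to 100 kb, around retained bins both lines lie close together, and MEF H3K27me3 lies between 1.06-fold and 1.29-fold around the chosen bins and peaks at 3.40-fold in mirror bins; the values of H3K9me3 and H3K4me3 at distance 0 were set by the choice.

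MEF H3K27me3, which the rule did not use, was mostly near its library mean in the chosen bins. Its median was 18 reads, or 0.97-fold, with quartiles of 13 and 25 reads, a lowest of 2 and a highest of 84. It reached 2-fold in 75 of the 1661 bins, or 4.52% (3.57 to 5.63), and 5-fold in 0 of them. Retained bins were at 2-fold in 42.3% (41.7 to 42.9), mirror bins in 72.9% (71.4 to 74.3) and all bins with low H3K4me3 in 9.88%. H3K27me3 was under 0.5-fold in 8.49% of the chosen bins and in 42.1% of all bins with low H3K4me3. It was under 0.5-fold in 1.87% of retained bins and 0.241% of mirror bins, so less often than in the chosen bins. At a MEF H3K9me3 level from 0.75 to 1.5-fold the share under 0.5-fold was 8.63% of the chosen bins and 5.52% of retained bins. It was 15.9% of the other bins with low H3K4me3.

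The comparison depended on which H3K9me3 level was held alike. At a MEF H3K9me3 level from 0.75 to 1.5-fold, H3K27me3 reached 2-fold in 48 of 1367 chosen bins, or 3.51% (2.60 to 4.63). At that level 4.13% (4.02 to 4.24) of other bins with low H3K4me3 and 7.27% (6.41 to 8.21) of retained bins did so. The chosen bins and the other bins overlapped in their intervals here, with medians of 0.97-fold in the chosen bins and 0.86-fold in the others. The rule chose its bins by a low MEF H3K9me3 count, so bins matched on that count need not be alike in MEF level on other reads. With secondary MEF reads held from 32 to 39, the share was 2.09% (1.24 to 3.28) of 861 chosen bins against 40.9% (40.2 to 41.6) of 18131 retained bins. The chosen bins thus had high H3K27me3 far less often than retained bins of like secondary MEF reads. At like secondary MEF reads the ratio limit itself left retained bins higher in MEF H3K9me3. Over the whole sets the MEF H3K9me3 medians were 2.15-fold in retained bins and 1.08-fold in the chosen bins. The part of that level in the contrast was not tested. With 2 kb bins the share of all chosen bins was 11.6%, and with limits of 3-fold and 3 times it was 12.5% of 32 bins. H3K27me3 was not measured in secondary MEF.

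**Figure D5:**
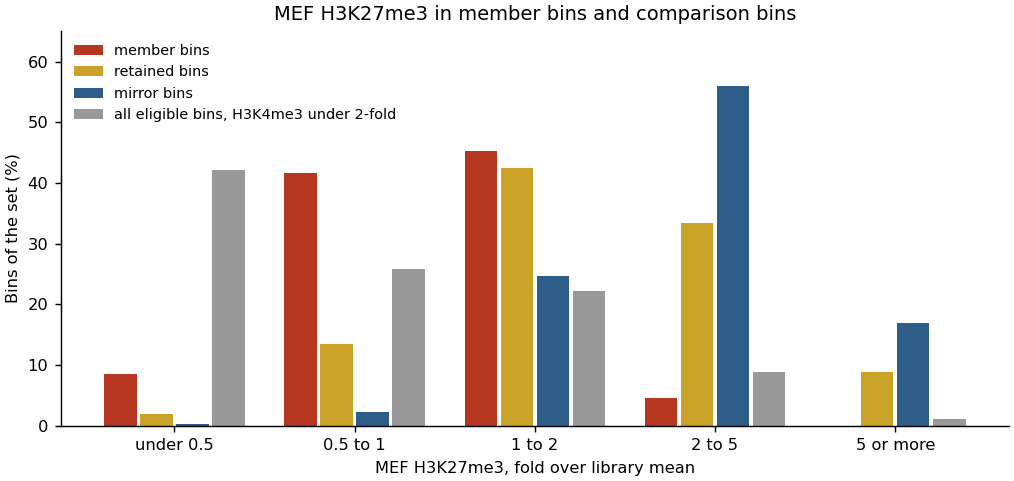
Share of bins (vertical, %) by MEF H3K27me3 level in fold over the library mean (horizontal) for the chosen bins (members), retained bins, mirror bins and all eligible bins with H3K4me3 under 2-fold. Most chosen bins lie from 0.5 to 2-fold and 4.52% at 2-fold or more, whereas 72.9% of mirror bins are at 2-fold or more.

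The 3 chosen bins with the highest MEF H3K27me3 differed in their H3K9me3. The bin on chromosome 10 from 79375001 to 79380000 had 84 H3K27me3 reads (4.53-fold), with 131 secondary MEF and 71 MEF H3K9me3 reads. The bin on chromosome 6 from 100385001 to 100390000 had 75 H3K27me3 reads (4.05-fold), with 39 secondary MEF and 21 MEF H3K9me3 reads. The bin on chromosome 5 from 129530001 to 129535000 had 70 H3K27me3 reads (3.78-fold), with 48 secondary MEF and 16 MEF H3K9me3 reads. The last stood among high neighbours in secondary MEF, at 3.42-fold before and 3.55-fold after it, against 2.44-fold before and 2.38-fold after it in MEF.

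H3K4me3 in the bin itself was part of the rule, and its median was 13 reads, or 0.57-fold. In the neighbouring bins it was not part of the rule. At least 1 neighbour at 2-fold or more in MEF H3K4me3 was present for 265 chosen bins, or 16.0% (14.2 to 17.8). The share was 25.9% (25.4 to 26.5) of retained bins, 18.5% (17.3 to 19.8) of mirror bins and 8.86% of all bins with low H3K4me3. At a MEF H3K9me3 level from 0.75 to 1.5-fold, a count that the rule used, it was 15.7% (13.8 to 17.8) of the chosen bins. It was 10.7% (10.5 to 10.9) of other bins with low H3K4me3 at that level. With H3K4me3 held under 1-fold in the bin itself the share was 5.61% (4.39 to 7.05) of the chosen bins against 6.05% of all bins under that limit. With 10 kb bins it was 9.73% (6.61 to 13.7) against 11.4%. The excess over all bins with low H3K4me3 was thus absent under both settings, and both intervals held the share of all bins. The median distance to a bin at 5-fold in MEF H3K4me3 was 165 kb for the chosen bins, 50.0 kb for retained bins and 140 kb for all bins with low H3K4me3.

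Bins beside H3K4me3 and bins in dense windows were nearly separate groups. In the 28 dense windows 4 of 457 chosen bins (0.875%) lay beside an H3K4me3 bin, against 261 of 1204 chosen bins elsewhere (21.7%). The share of all bins with low H3K4me3 was 8.86% over the eligible chromosomes and was not taken for the dense windows alone. Those windows differed in H3K4me3, for example with 1 such bin on chromosome 13 from 57000001 and 36 on chromosome 15 from 83000001. A neighbouring chosen bin was present for 9 of the 265 bins beside H3K4me3 (3.40%) and for 284 of the 1396 others (20.3%), where a bin at 2-fold in H3K4me3 could not itself be chosen. Of the 265, 34 (12.8%) were beside a bin that met both H3K9me3 limits but had high H3K4me3, against 4.32% of the bins with low H3K4me3 beside such a mark that were not chosen. The rule left out 1407 bins of that kind in all (0.317% of eligible bins), beside the 1661 it took (0.375%). Bins with low H3K4me3 made up 93.0% of eligible bins. The H3K9me3 limits were thus met by a larger share of the bins with high H3K4me3 than of those with low H3K4me3. Bins in dense windows had a median of 2.85-fold in secondary MEF against 1.25-fold in MEF, and those elsewhere 2.41-fold against 1.08-fold.

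The highest bins lay outside the dense windows, and many were beside H3K4me3. Of the 21 bins at 5-fold or more in secondary MEF, 11 (52.4%) lay beside an H3K4me3 bin and 0 in a dense window, and 5 (23.8%) were at 2-fold in MEF H3K27me3. Over all chosen bins these shares were 16.0% beside an H3K4me3 bin, 27.5% in dense windows and 4.52% at 2-fold in H3K27me3. They were not taken for retained bins of that height. The highest, on chromosome 8 from 73525001 to 73530000, had 194 secondary MEF reads (12.30-fold) and 55 MEF reads (3.12-fold), a ratio of 3.94 (2.91 to 5.42). It had 45 H3K4me3 reads (1.99-fold), right at the limit, and a neighbour at 10.03-fold in H3K4me3. On chromosome 9 from 123775001 to 123780000 there were 144 secondary MEF reads and 34 MEF reads, beside a bin at 17.99-fold in H3K4me3. The next, on chromosome 9 from 106320001 to 106325000, had 138 secondary MEF reads and 51 MEF reads. These 3 bins had a high H3K4me3 neighbour, while MEF H3K9me3 was itself at or near 2-fold or more in each.

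The other bins of the highest 5 were on chromosome 10. The bin from 79375001, named above for its H3K27me3, had 131 secondary MEF reads and 71 MEF reads (8.30-fold against 4.02-fold), just past the ratio limit at 2.06 (1.53 to 2.79). The bin from 76150001 to 76155000 had 125 secondary MEF reads and 56 MEF reads, with the bin after it at 6.27-fold in secondary MEF against 2.89-fold in MEF. It had no H3K4me3 bin beside it.

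The largest ratio was found on chromosome 9 from 123780001 to 123785000, next to the bin at 144 reads. It had 111 secondary MEF reads and 17 MEF reads, a ratio of 7.30 (4.36 to 13), with 49 of the secondary MEF reads on the plus strand and 62 on the minus strand. With the next bin these made a run of 3 bins, 123775001 to 123790000, with 304 secondary MEF reads against 64 MEF reads, 6.42-fold against 1.21-fold. Its 4 flanking bins, which were not chosen, had a ratio of 1.59 (1.14 to 2.22).

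The other large ratios rested on few MEF reads. Chromosome 6 from 101805001 to 101810000 had 32 secondary MEF reads and 6 MEF reads, a ratio of 5.96 (2.46 to 17.4). Chromosome 15 from 35785001 to 35790000 had 32 secondary MEF reads and 7 MEF reads, a ratio of 5.11 (2.22 to 13.7). Both intervals were wide, neither bin met the rule on each strand, and the bins beside them in secondary MEF stood between 0.57-fold and 1.27-fold. Chromosome 2 from 179550001 to 179555000 had 50 secondary MEF reads and 11 MEF reads, a ratio of 5.08 (2.61 to 10.8), and met the rule on each strand. Chromosome 8 from 126310001 to 126315000 also had 50 secondary MEF reads and 11 MEF reads. It had 1 read in MEF H3K4me3 and 15 in MEF H3K27me3.

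In that bin on chromosome 8 the MEF reads were missing over a long stretch. From 126311748 to 126315000, which is 3253 bp, none of the 3 MEF libraries had a read, while secondary MEF H3K9me3 had 38 of its 50 reads there. Without the limit of the bin, MEF reads were missing to 126320658, which is 8911 bp in all with 58 secondary MEF reads. A stretch of 1 kb or more inside the bin with no read in any MEF library was found in 115 of the chosen bins, or 6.92% (5.75 to 8.25). The share was 1.5% of retained bins and 39.2% of all bins with low H3K4me3. At a MEF H3K9me3 count from 0.75 to 1.5-fold it was 6.14% (4.93 to 7.55) of the chosen bins and 15.6% (15.4 to 15.8) of the others. Such stretches were thus less frequent in the chosen bins than in bins of like MEF count, but more frequent than in retained bins. Neither set is a full match. The bins of like MEF count had no lower limit on secondary MEF reads, and retained bins had higher MEF H3K9me3 through the choice. The rule chose its bins by a low MEF count, so a like count need not mean a like MEF level. Secondary MEF had 10 or more reads in that stretch in 8 of the 115 and 0 in 14. What kept MEF reads out of these stretches was not tested.

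Reads with 2 locations, which the rule did not use, went the same way as the reads with 1 location. In the chosen bins there were 1812 such reads in secondary MEF H3K9me3 and 1490 in MEF H3K9me3. Relative to all bins with low H3K4me3, the ratio of secondary MEF to MEF was 1.34 (1.25 to 1.44), and 1.27 (1.18 to 1.37) without the 10 bins that held the most. It was 0.985 (0.968 to 1.0) in retained bins and 0.695 (0.661 to 0.729) in mirror bins. Such reads were present in 64.7% of the chosen bins and 68.1% of all bins with low H3K4me3. Summed over the 4 libraries they were 0.790 (0.769 to 0.812) of the mean of all eligible bins, but 1.14 when repeated reads were kept. Each such read is listed at both locations, and its true origin is unknown.

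Inside the median bin the secondary MEF reads were spread much as in retained bins. With 32 to 39 reads, the fullest 500 bp held a median of 22.2% of the reads in 861 chosen bins and 21.6% in 18131 retained bins. An even spread over the bin gives 10% to each 500 bp. The fullest 500 bp lies above that share even when so few reads are placed at random, so neither median shows concentration by itself. More than 40% in 500 bp was found in 12 of those 861 chosen bins and in 142 of the 18131 retained bins, a larger share of the chosen bins.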

How the data were processed

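The deposited files hold values of a kind other than levels: each is the mm8 position of 1 aligned read, negative where the read lies on the minus strand, without normalization. Per the file headers, the authors ran Bowtie with --best and --concise, a seed of 36 bases (-l) with -n 2, a quality limit (-e) of 70, and up to 2 locations reported (-k) or allowed (-m). The Bowtie version and any removal of repeated reads are not given in the sources used here. Reads with more than 2 locations are absent, so repeated sequence is poorly covered. Input libraries and the mitochondrial chromosome were not used here.

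Here, 1 read was kept per position and strand (91.4% to 98.0% of reads), moved 75 bp to its 3' side with a read length of 36 bases assumed, and counted in 5 kb bins. The library mean was taken over 494868 bins of chromosomes 1 to 19, X and Y with a read in any library. Ratios are of folds, with 95% Clopper-Pearson intervals. Regions were named by a rule: the 5 chosen bins with the highest secondary MEF H3K9me3, the 5 with the largest ratio (MEF reads floored at 3), the 5 longest runs, the 5 windows of 1 Mb with the most bins, and the 3 bins with the highest H3K27me3. The run of 3 bins on chromosome 9, the stretch on chromosome 8 and the chromosome 15 window from 87000001 were described after their values were seen. The bins, comparison sets and alternatives were chosen with earlier results of these data known. The rule and the ratio on the unused strand were tested on simulated bin counts, which did not test the placing and counting of reads. Python 3.11.15, numpy 2.4.6, scipy 1.17.1 and matplotlib 3.10.9 were used.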

Additional observations from a re-analysis of the deposited data

How the results depend on the processing

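The number of chosen bins was 1526 to 1690 under the scaling and read-handling alternatives and 1229 with H3K4me3 under 1-fold, but 298 with 10 kb bins, 12091 with 2 kb bins and 32 with limits of 3-fold and 3 times. With 10 kb bins, 25.2% had a chosen neighbour, 9.73% an H3K4me3 neighbour, and the ratio was 1.38 in flanks and 1.46 on the unused strand. With 2 kb bins, 14.0% had a chosen neighbour, 11.6% were at 2-fold in H3K27me3, and the ratio was 1.12 in flanks and 1.15 on the unused strand. With 3-fold and 3 times, these values were 9.38% with a chosen neighbour, 12.5% at 2-fold in H3K27me3, 1.70 in flanks and 1.68 on the unused strand. With H3K4me3 under 1-fold, 21.7% had a chosen neighbour, 5.61% an H3K4me3 neighbour, and the ratio was 1.30 in flanks and 1.32 on the unused strand. With the mean over eligible bins alone the ratio was 1.29 in flanks and 1.32 on the unused strand, with each chromosome scaled to its own mean 1.25 in flanks, and with the ratio's interval also excluding 1 it was 1.35 on the unused strand. With every read kept, 5.80% were at 2-fold in H3K27me3. Reads with 2 locations, summed over the 4 libraries, were 0.790 of their mean over eligible bins in the chosen bins. That value was 0.837 with such reads added at a weight of 0.5, 0.818 with the mean over eligible bins alone, 0.846 with 10 kb bins and 0.829 with 2 kb bins. It turned to above 1 with every read kept (1.14) and with 3-fold and 3 times (1.79); the cause was not tested. In both H3K9me3 ratios secondary MEF stayed higher under all 10 alternatives. Depth limits single bins, since 32 secondary MEF reads are enough for the rule. No paired analysis was possible because each group holds 1 library.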
